A study of Mus musculus with 12 samples.

Results

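The cell cycle was followed through 38 genes, of 24411 in the deposited tables, in mouse blastocysts whose Nampt had been targeted with an siRNA. The genes were chosen by name and fall into 4 groups by role: 9 genes of G1 (D and E cyclins, their kinases and the inhibitor Cdkn1b), 4 that act from S phase to mitosis (Ccna2, Ccnb1, Ccnb2 and Cdk1), 12 of DNA replication and 13 of mitosis. Every one of the 38 passed the filter on low counts and was tested. Counts were few for Ccnd2 (1 to 27 a library), Cdkn1b (17 to 38) and Ccnd1 (21 to 63).

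Each library came from a pool of 10 wild-type ICR blastocysts, an outbred stock, made by in vitro fertilization and collected at 96 hours post insemination (hpi). There were 6 groups of 2 libraries. HFD_siNampt and ND_siNampt embryos received an siRNA against Nampt, the enzyme that makes NAD from nicotinamide, and HFD_siNT and ND_siNT embryos a non-targeting siRNA, both by electroporation of zygotes at 3 to 6 hpi. HFD_C and ND_C were controls; their labels do not say whether they were electroporated. The labels do not spell out HFD and ND, and the series title speaks of obese and normal weight mice. The replicate numbers 1 and 2 are batch labels. Since pools were sequenced whole, fewer cells of a type and less RNA per cell cannot be told apart, and p-values reflect only how much such pools vary, whose parents are not described.

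A cell commits to division when D cyclins with Cdk4 or Cdk6, and then E cyclins with Cdk2, switch on E2F-driven transcription. Cdc6 and Cdt1 load the Mcm helicase onto replication origins, Gmnn (geminin) blocks Cdt1 from loading it again, and Cdk1 with its B cyclins drives entry into mitosis, which ends when Cdc20 activates the anaphase-promoting complex. Cells of the early embryo divide with short gap phases, and many genes of late cell cycle phases share a promoter element called the cell cycle genes homology region (CHR).

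Promoters are shown because the roles differ in which element they carry. RefSeq promoters (GRCm38.p6, from 250 bases before to 50 after the start) were found for 31 of the 38 genes. The E2F letters TTTCGCGC, TTTGGCGC, TTTCCCGC or TTTGCCGC, on either strand, were present in 6 of 10 replication genes, in 0 of 12 mitosis genes and in 2.605% of all 27025 genes with a promoter. The CHR letters TTTGAA, on either strand, were present in 8 of 12 mitosis genes, in 2 of 3 genes of the S to M group, in 1 of 10 replication genes (Mcm2) and in 20.226% of all promoters. The CCAAT box, on either strand, was present in 24 of 31 and in 41.058% of all promoters. In Cdk1 and Cdc20 a CHR match lay 15 and 18 bases before the start site. The 180 bases before the start of 6 genes follow, 5′ to 3′ on the gene's strand, with E2F and CHR letters in capitals (overlapping E2F matches in Mcm6 form 1 run). They lie at chr10:128705052-128705231 (- strand) for Cdk2, chr1:128359706-128359885 (- strand) for Mcm6, chr10:69352913-69353092 (- strand) for Cdk1, chr9:70421555-70421734 (- strand) for Ccnb2, chr4:118437344-118437523 (- strand) for Cdc20 and chr19:37376202-37376381 (+ strand) for Kif11.
Cdk2: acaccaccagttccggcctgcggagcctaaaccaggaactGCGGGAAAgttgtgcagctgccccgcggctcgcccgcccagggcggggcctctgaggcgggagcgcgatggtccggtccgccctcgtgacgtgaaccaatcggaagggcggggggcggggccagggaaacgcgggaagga
Mcm6: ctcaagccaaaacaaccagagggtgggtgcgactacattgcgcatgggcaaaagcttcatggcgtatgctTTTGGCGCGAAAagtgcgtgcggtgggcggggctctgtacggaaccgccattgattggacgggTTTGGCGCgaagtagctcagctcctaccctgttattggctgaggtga
Cdk1: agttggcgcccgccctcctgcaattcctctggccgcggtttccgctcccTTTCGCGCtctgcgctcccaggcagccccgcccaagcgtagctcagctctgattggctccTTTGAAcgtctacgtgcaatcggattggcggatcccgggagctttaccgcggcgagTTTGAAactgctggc
Ccnb2: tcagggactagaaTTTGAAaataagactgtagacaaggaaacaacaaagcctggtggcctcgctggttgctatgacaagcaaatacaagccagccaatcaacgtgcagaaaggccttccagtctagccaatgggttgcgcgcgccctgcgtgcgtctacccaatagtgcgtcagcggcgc
Cdc20: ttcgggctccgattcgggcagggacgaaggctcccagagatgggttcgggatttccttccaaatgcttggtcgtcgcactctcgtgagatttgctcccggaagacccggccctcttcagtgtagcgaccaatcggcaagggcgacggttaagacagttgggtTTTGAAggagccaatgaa
Kif11: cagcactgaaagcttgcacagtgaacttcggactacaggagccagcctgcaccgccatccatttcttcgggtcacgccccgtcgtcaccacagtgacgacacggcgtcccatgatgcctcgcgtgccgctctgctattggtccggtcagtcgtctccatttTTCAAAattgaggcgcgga
The capitals in Cdk2 and Mcm6 are E2F letters, those in Ccnb2, Cdc20 and Kif11 are CHR letters, and Cdk1 holds both. A match describes the letters and not binding.

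Depth was 42473129 to 50503064 expected counts a library, with 16473 to 17948 genes counted. Replicates correlated at 0.964 to 0.972 across genes on the log2 CPM scale. The gap between gene length and effective length, a measure of fragment size, was 185.7 bases in HFD_siNT replicate 1 and 210.7 to 231.2 bases in the other libraries. The targeted gene Nampt stood at 50.3 and 44.0 CPM (counts scaled to library size with TMM factors) in HFD_siNampt, 61.3 and 66.0 in HFD_siNT and 67.0 and 57.3 in HFD_C, and at 53.9 and 37.7 in ND_siNampt, 74.6 and 49.4 in ND_siNT and 54.2 and 38.2 in ND_C. Its log2 fold change was -0.43 (SE 0.17, adjusted p = 0.396) against siNT and -0.21 (SE 0.17, adjusted p = 0.999) against C in edgeR, so the knockdown itself did not pass. Markers of the trophectoderm, the outer layer of the blastocyst, and of the inner cell mass were present in every library: 0 of 19 and 0 of 14 were listed at 0 in any. Of other lists, the sperm marker Tnp1 and the giant cell marker Prl3d1 were at 0 in all 12 libraries and the cumulus markers Has2 and Cyp19a1 in 6 and 9 of 12, while Prm2 and Tnp2 (sperm, means of 0.532 and 1.03 TPM), Plet1 (giant cells, 193 TPM) and Serpine2 (cumulus, 109 TPM) were at 0 in none. Plet1 and Serpine2 held 178837 and 114391 counts over the 12 libraries, against 294 for Prl3b1 and 172 for Has2, the next of their lists.

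Levels between genes are given in TPM, which is per length. Of the D cyclins, which partner Cdk4 and Cdk6, blastocysts held mainly Ccnd3, at 35.5 TPM ± 14.2 (SD over 12 libraries). Ccnd1 stood at 0.33 and 0.26 TPM in HFD_siNampt, 0.25 and 0.32 in HFD_siNT and 0.13 and 0.17 in HFD_C, and at 0.35 and 0.35 in ND_siNampt, 0.23 and 0.12 in ND_siNT and 0.19 and 0.16 in ND_C. Ccnd2 stood at 0.03 and 0.04 TPM in HFD_siNampt, 0.01 and 0.06 in HFD_siNT and 0.03 and 0.04 in HFD_C, and at 0.01 and 0.10 in ND_siNampt, 0.00 and 0.03 in ND_siNT and 0.00 and 0.05 in ND_C. Both lay below 1 TPM in each library, under the lowest Ccnd3 value of 20.9 TPM. Of the kinases, Cdk4 was the high one and Cdk6 the low one, at 0.996 TPM on average. Cdk4 stood at 185 and 225 TPM in HFD_siNampt, 172 and 173 in HFD_siNT and 172 and 199 in HFD_C, and at 193 and 183 in ND_siNampt, 186 and 158 in ND_siNT and 201 and 209.6 in ND_C. Cdkn1b stood at 0.27 and 0.18 TPM in HFD_siNampt, 0.29 and 0.16 in HFD_siNT and 0.21 and 0.21 in HFD_C, and at 0.31 and 0.15 in ND_siNampt, 0.26 and 0.28 in ND_siNT and 0.34 and 0.38 in ND_C. Cdkn1b encodes p27, an inhibitor of cyclin-dependent kinases, and lay near Ccnd1, the higher of the pair in 7 of 12 libraries. The E cyclins Ccne1 and Ccne2 averaged 19.6 and 6.60 TPM, and their kinase Cdk2 averaged 21.5 TPM, above Ccne1 in 8 of 12 libraries only.

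The cyclins of later phases were higher. Ccnb1 averaged 380.0 TPM ± 44.1 and Ccnb2 298 TPM ± 27.4, with Ccnb1 the higher in 12 of 12 libraries. Ccnb2 stood at 267 and 324 TPM in HFD_siNampt, 308 and 282 in HFD_siNT and 339 and 301 in HFD_C, and at 273 and 312 in ND_siNampt, 268 and 327 in ND_siNT and 256 and 314 in ND_C. Their kinase Cdk1 averaged 127 TPM, and Ccna2, the cyclin of S phase and G2, 67.4 TPM with a range of 61.6 to 77.5, a 1.26-fold spread over the 12 libraries that was the narrowest of the 38 genes. The order Ccnb1, Ccnb2, Cdk1, Ccna2 was the same in each of the 12 libraries.

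Among replication genes the brake on licensing was the most abundant. Gmnn averaged 446 TPM ± 51.2, above the sliding clamp Pcna at 299 TPM ± 21.4 in 12 of 12 libraries. Cdt1, the loader that Gmnn binds, and its partner Cdc6 averaged 18.3 and 18.0 TPM, so Gmnn transcripts were above those of Cdt1 in every library. Cdt1 stood at 19.8 and 24.97 TPM in HFD_siNampt, 19.6 and 14.0 in HFD_siNT and 13.5 and 21.0 in HFD_C, and at 18.5 and 20.0 in ND_siNampt, 15.4 and 14.2 in ND_siNT and 20.3 and 18.7 in ND_C. Cdc6 stood at 15.0 and 22.9 TPM in HFD_siNampt, 17.5 and 15.4 in HFD_siNT and 17.3 and 18.0 in HFD_C, and at 19.5 and 21.5 in ND_siNampt, 14.1 and 16.0 in ND_siNT and 16.4 and 22.0 in ND_C. These 2 and Mcm3 could not be ordered, as each was the higher of its neighbour in 6 or 7 of 12 libraries. Mcm3 stood at 15.8 and 25.1 TPM in HFD_siNampt, 17.7 and 15.8 in HFD_siNT and 16.2 and 20.9 in HFD_C, and at 20.6 and 20.7 in ND_siNampt, 15.2 and 16.8 in ND_siNT and 19.4 and 19.8 in ND_C. The 6 Mcm subunits form 1 ring with a copy of each, yet their transcripts averaged 58.6 TPM for Mcm6, 41.4 for Mcm4, 34.4 for Mcm7, 28.4 for Mcm2, 20.6 for Mcm5 and 18.7 for Mcm3. Rrm1 and Rrm2 are the large and small subunits of ribonucleotide reductase, which makes deoxyribonucleotides; Rrm1 averaged 35.6 TPM and Rrm2 200.02 TPM. Rrm2 stood at 133 and 238 TPM in HFD_siNampt, 194 and 166 in HFD_siNT and 225 and 217 in HFD_C, and at 188 and 228 in ND_siNampt, 193 and 191 in ND_siNT and 169 and 258 in ND_C. The lowest Rrm2 value was that of HFD_siNampt replicate 1.

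Mitosis genes had the widest range of levels apart from the G1 group. Birc5 (survivin), a subunit of the chromosomal passenger complex, was the highest of the 38. Birc5 stood at 1029.7 and 872 TPM in HFD_siNampt, 1015 and 1025 in HFD_siNT and 1169 and 1113 in HFD_C, and at 920.4 and 1006 in ND_siNampt, 937 and 1071 in ND_siNT and 879 and 985 in ND_C. Its partner kinase Aurkb averaged 23.3 TPM, while the spindle pole kinase Aurka averaged 207 TPM. Aurka stood at 153 and 237 TPM in HFD_siNampt, 190.0 and 172 in HFD_siNT and 249 and 219 in HFD_C, and at 216 and 225 in ND_siNampt, 179 and 201 in ND_siNT and 182 and 256 in ND_C. Cdc20 averaged 125 TPM and Mad2l1, the checkpoint protein that holds Cdc20 in check, 120.4 TPM, and each was the higher of the 2 in 7 or 5 of 12 libraries. Top2a, which untangles DNA, averaged 23.7 TPM, the mitotic kinase Plk1 22.7 TPM, and the checkpoint kinases Bub1 and Ttk 21.2 and 15.0 TPM. The kinetochore motor Cenpe averaged 14.8 TPM. At the low end were the spindle motor Kif11, the proliferation marker Mki67 and the checkpoint protein Bub1b, at 12.3, 7.58 and 7.20 TPM. Kif11 stood at 12.6 and 12.4 TPM in HFD_siNampt, 10.1 and 13.0 in HFD_siNT and 13.0 and 14.3 in HFD_C, and at 11.3 and 11.2 in ND_siNampt, 11.4 and 12.1 in ND_siNT and 13.6 and 13.2 in ND_C. Mki67 stood at 11.5 and 6.10 TPM in HFD_siNampt, 7.99 and 6.70 in HFD_siNT and 8.16 and 8.58 in HFD_C, and at 6.17 and 7.30 in ND_siNampt, 6.40 and 7.98 in ND_siNT and 7.31 and 6.82 in ND_C. Mki67 in HFD_siNampt replicate 1 was above each of the other 11 libraries. In FPKM the 38 genes had the same order, which is no separate check, since TPM is FPKM rescaled within each library.

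**Figure D1:**
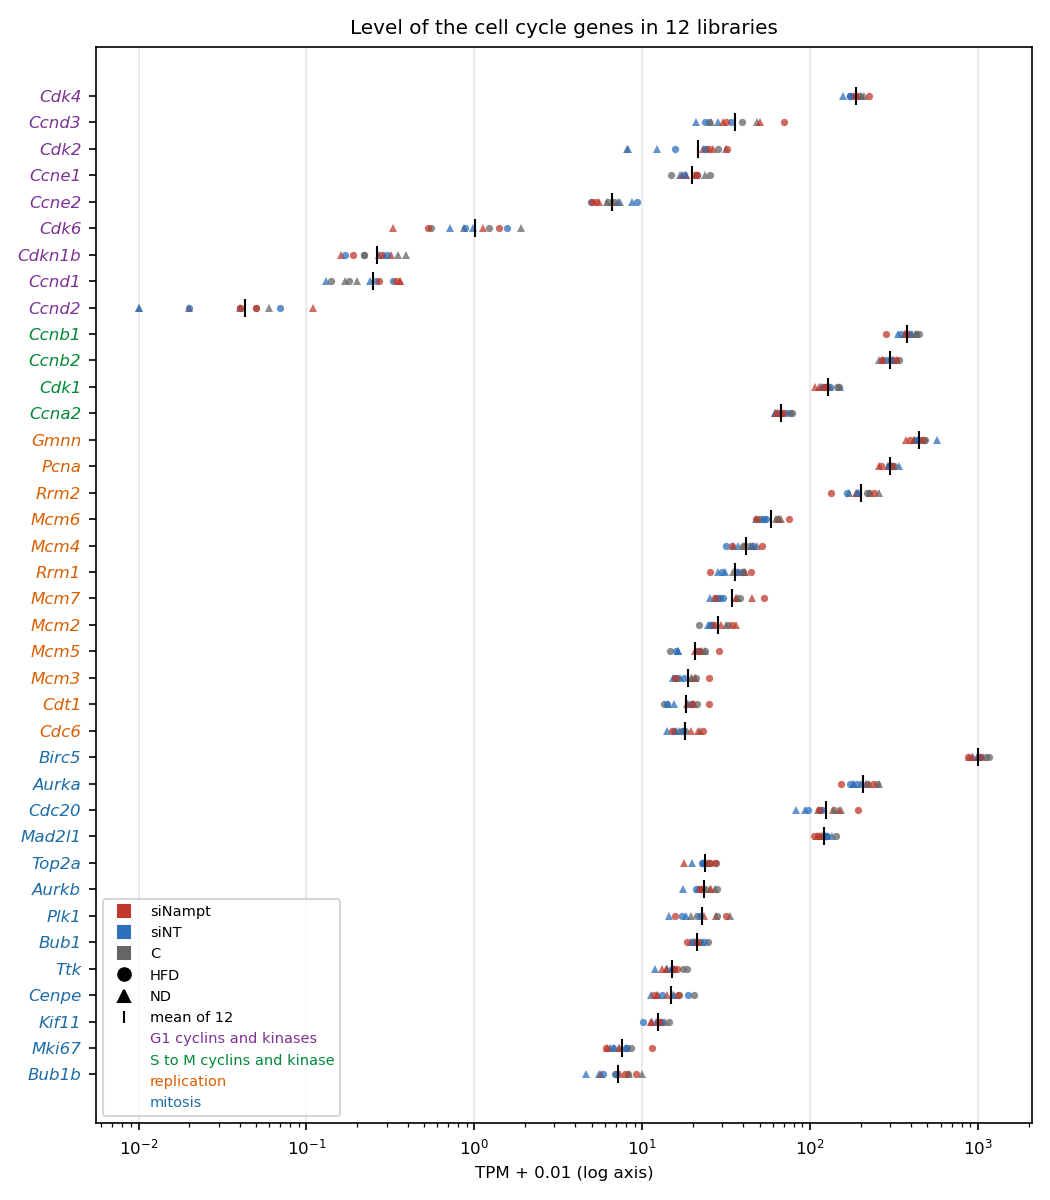
TPM (plus 0.01, log axis) of the 38 genes in each of 12 libraries, by role and mean level; colours give the treatment, symbols the diet and the vertical bar the mean. Birc5 is highest at a mean of 1002 TPM, and Ccnd1, Ccnd2 and Cdkn1b lie below 1 TPM in each library.

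The SD of log2 CPM over the 12 libraries had a median of 0.20 for the 38 genes and 0.33 for all 14743 genes tested, and among genes of at least 5 CPM it was 0.20 for 34 of them and 0.23 for 8483 genes. By role the median SD was 0.44 for G1 genes, above that of all genes, 0.17 for the S to M group, 0.19 for replication and 0.20 for mitosis. Ccna2, at 0.12, and Cdk4, at 0.10, varied least, and Cdk2, at 0.64, varied most among genes above 5 CPM.

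Whether Nampt siRNA changes the cycle genes was asked first with the diets together, in 4 siNampt and 4 siNT libraries. With edgeR's quasi-likelihood test 0 of the 38 genes passed the adjusted threshold of 0.05, where 0% of all genes tested passed. At an unadjusted p under 0.05, 4 of the 38 were higher in siNampt (10.5%, against a background of 6.1% of all genes) and 5 were lower (13.2%, against 5.05%). DESeq2 passed 1 of all genes and limma on log2 TPM 0, with 0 of the 38 in either. The 9 genes were Cdk2, Ccnd3, Mcm7 and Cdc20 on the higher side and Ccne2, Cdk1, Pcna, Gmnn and Mad2l1 on the lower side, each with an adjusted p of 0.396. In RefSeq (GRCm38) they are protein-coding genes. Cdk2 lies on chromosome 10 from 128697938 to 128705051 and Ccnd3 on chromosome 17 from 47505051 to 47599689. Mcm7 lies on chromosome 5 from 138164583 to 138172111. Cdc20 and Ccne2 lie on chromosome 4, from 118432901 to 118437343 and from 11190433 to 11204779. Cdk1 lies on chromosome 10 from 69335146 to 69352912 and Pcna on chromosome 2 from 132249286 to 132253180. Gmnn lies on chromosome 13 from 24751845 to 24761937 and Mad2l1 on chromosome 6 from 66535221 to 66541107. The split of 4 higher and 5 lower was 6 and 0 with limma on log2(TPM + 1) (15.8% in all, against 13.6% of all genes). There the median of all genes was 0.07. After correcting for the GC content and length of transcripts the split was 1 and 7 (21.1%, against 6.95%). With that correction the median of all genes was -0.10 (0.03 in edgeR). The correction's curves were fitted without TMM factors and took up library scaling, and TMM factors were applied on top. Limma on log2 TPM used no TMM factors. The splits under both settings thus also hold a shift common to all genes. In the same comparison 12 of 19 trophectoderm markers were on the higher side. At an unadjusted p under 0.05, 4 of these markers were higher (21.1%) and 1 was lower (5.26%). The list summed to 6326 to 8869 TPM in siNampt and 5427 to 7177 TPM in siNT. Krt18, Id2, Krt8 and Dppa1 had the highest mean TPM of the list and weigh most in its sums. The part of these markers in the cell cycle genes was not tested.

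Of the G1 genes, 5 of 9 were on the higher side with a median log2 fold change of 0.03. Cdk2 stood at 53.0 and 62.4 CPM in HFD_siNampt, 48.7 and 37.5 in HFD_siNT and 53.5 and 59.2 in HFD_C, and at 49.1 and 56.2 in ND_siNampt, 20.0 and 29.3 in ND_siNT and 17.1 and 64.2 in ND_C. The siNampt values lay above all 4 siNT values, while 1 of the 4 C values, in ND_C replicate 1, lay below all siNT values. The log2 fold change of Cdk2 was 0.76 (SE 0.29, unadjusted p = 0.0212, adjusted p = 0.396) in edgeR. Ccnd3 was at 55.5 and 113 CPM in HFD_siNampt, 58.1 and 46.2 in HFD_siNT and 46.1 and 67.4 in HFD_C, and at 53.4 and 87.6 in ND_siNampt, 41.5 and 55.5 in ND_siNT and 45.6 and 81.1 in ND_C. Ccnd3 overlapped between siNampt and siNT, with HFD_siNampt replicate 2 the highest library, and differed by 0.62 (SE 0.24). Ccne2 was at 14.2 and 13.7 CPM in HFD_siNampt, 25.4 and 15.5 in HFD_siNT and 19.9 and 17.2 in HFD_C, and at 18.6 and 15.3 in ND_siNampt, 27.3 and 22.5 in ND_siNT and 17.3 and 19.9 in ND_C. With libraries paired by diet and batch, Ccne2 was below siNT in 4 of 4, though the groups overlapped, and differed by -0.55 (SE 0.17). The remaining G1 genes were at 0.35 for Ccnd1, 0.46 for Ccnd2, 0.03 for Cdk4, -0.10 for Ccne1, -0.23 for Cdkn1b and -0.44 for Cdk6. The values of Ccnd1, Ccnd2 and Cdkn1b rest on few counts.

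The 4 genes of the S to M group were all on the lower side, with a median of -0.19. Cdk1 was at 330.2 and 292 CPM in HFD_siNampt, 337 and 354 in HFD_siNT and 415 and 374 in HFD_C, and at 283 and 296 in ND_siNampt, 345 and 448 in ND_siNT and 314 and 333 in ND_C. The 4 siNampt values of Cdk1 lay below the 4 siNT values, and those of C spanned both. Cdk1 differed by -0.31 (SE 0.12, unadjusted p = 0.0193, adjusted p = 0.396) in edgeR. Ccna2 averaged 165 CPM ± 5.56 in siNampt and 182 CPM ± 4.78 in siNT (SD, n = 4), without overlap, and differed by -0.14 (SE 0.09). Ccnb1 and Ccnb2 differed by -0.21 (SE 0.12) and -0.16 (SE 0.11), each lower in 4 of 4 pairs. The group's median was -0.15 among libraries of batch 1 and -0.23 among those of batch 2. It was -0.24 with the GC and length correction, where the median of all genes was -0.10. With limma on log2(TPM + 1) it was -0.04, where that median was 0.07. In edgeR the median of all genes was 0.03.

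Of the replication genes, 9 of 12 were on the higher side (75%, against 52.8% of all genes) and 3 on the lower side. At an unadjusted p under 0.05 in edgeR, 1 was higher (Mcm7, 8.33%, against 6.1% of all genes). At that p 2 were lower (Pcna and Gmnn, 16.7%, against 5.05%). The 9 included all 6 subunits of the Mcm helicase and its loaders Cdc6 and Cdt1, down to 0.06 for Mcm4. With the correction for GC content and length the group's median was below 0 but above that of all genes. Mcm7 stood at 59.5 and 107 CPM in HFD_siNampt, 63.8 and 68.0 in HFD_siNT and 66.5 and 80.8 in HFD_C, and at 97.5 and 77.9 in ND_siNampt, 61.7 and 66.4 in ND_siNT and 79.5 and 77.2 in ND_C. Of the siNampt libraries, 3 exceeded every siNT library and HFD_siNampt replicate 1 was below them all, so the groups overlapped. Mcm7 differed by 0.39 (SE 0.15, unadjusted p = 0.0225, adjusted p = 0.396) in edgeR. Mcm5 and Cdt1, higher in 4 of 4 pairs, differed by 0.28 (SE 0.14) and 0.26 (SE 0.14), and the other Mcm genes lay between 0.06 for Mcm4 and 0.18 for Mcm3. Cdc6 differed by 0.18 (SE 0.12). Pcna stood at 278 and 294 CPM in HFD_siNampt, 305 and 349 in HFD_siNT and 343 and 311 in HFD_C, and at 303 and 267 in ND_siNampt, 397 and 364 in ND_siNT and 317 and 292 in ND_C. The 4 siNampt values of Pcna lay below the 4 siNT values, and it differed by -0.31 (SE 0.10, unadjusted p = 0.00785, adjusted p = 0.396) in edgeR. Gmnn stood at 357 and 275 CPM in HFD_siNampt, 335 and 363 in HFD_siNT and 380.0 and 355 in HFD_C, and at 280.4 and 314 in ND_siNampt, 398 and 484 in ND_siNT and 316 and 308 in ND_C. Gmnn overlapped, with ND_siNT replicate 2 the highest library, and differed by -0.36 (SE 0.13). Rrm1 and Rrm2 were at 0.09 and -0.07. The median of the 12 was 0.14 with 9 on the higher side, 0.04 in batch 1 and 0.26 in batch 2, and it was 0.25 without HFD_siNampt replicate 1 and 0.06 without HFD_siNampt replicate 2. That correction brought it to -0.06, against -0.10 for all genes, and Mcm7 to 0.08.

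Of the mitosis genes, 8 of 13 were on the lower side with a median of -0.07. Cdc20 stood at 179 and 276 CPM in HFD_siNampt, 179 and 168 in HFD_siNT and 188 and 213 in HFD_C, and at 215 and 229 in ND_siNampt, 144 and 164 in ND_siNT and 175 and 229 in ND_C. Cdc20 was higher in 3 of 4 pairs, with HFD_siNampt replicate 1 at the level of its siNT partner, and differed by 0.46 (SE 0.13, unadjusted p = 0.00387, adjusted p = 0.396) in edgeR. Mad2l1 stood at 168 and 145 CPM in HFD_siNampt, 180.5 and 208 in HFD_siNT and 224 and 184 in HFD_C, and at 174 and 168 in ND_siNampt, 209.6 and 228 in ND_siNT and 166 and 169.8 in ND_C. The siNampt values of Mad2l1 lay below all siNT values, and those of C reached into both. Mad2l1 differed by -0.33 (SE 0.12, unadjusted p = 0.0132, adjusted p = 0.396) in edgeR. Birc5 and Bub1 were at -0.24 and -0.16, Plk1 and Bub1b at 0.29 and 0.25, and the other 7 lay between -0.22 for Cenpe and 0.04 for Aurkb. Corrected for GC content and length, Cdc20 was at 0.13, where the median of all genes was -0.10 (0.03 in edgeR).

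**Figure D2:**
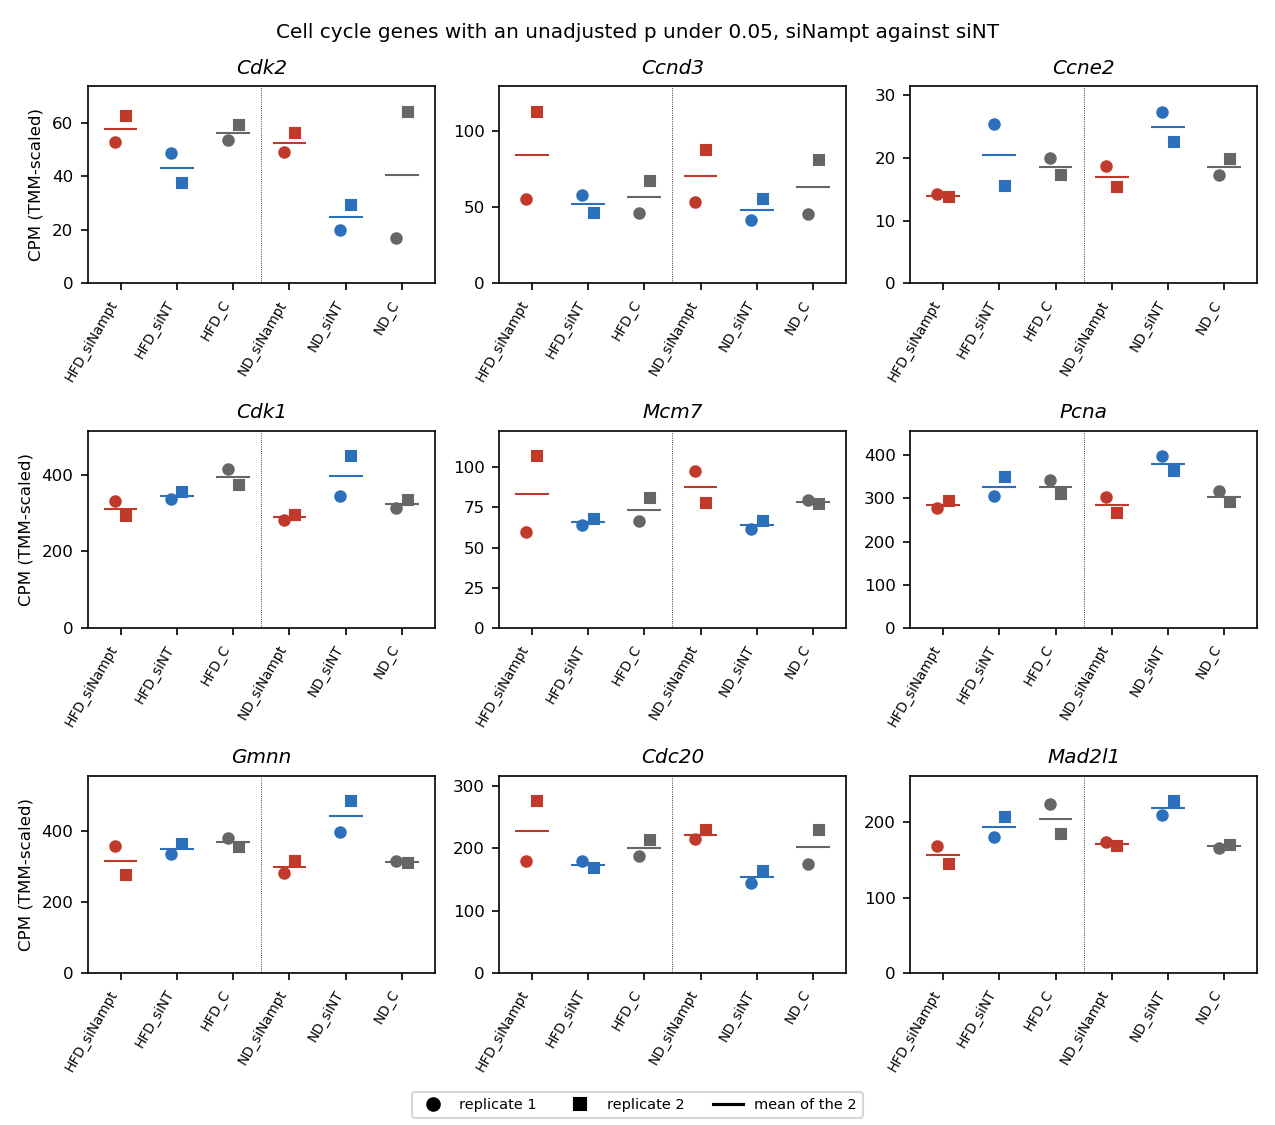
TMM-scaled CPM of the 9 genes with an unadjusted p under 0.05 for siNampt against siNT, by group; circles and squares are replicates 1 and 2, bars their mean, and the axis starts at 0. Cdk1, Pcna and Mad2l1 lie lower and Cdk2 higher in siNampt than in siNT of the same diet in each library.

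Differences went with base composition. Across the 38 genes the log2 fold change of siNampt against siNT correlated with the GC content of the transcripts at Pearson r = 0.66 (Spearman rho = 0.64), and across 14620 genes at r = 0.29 (rho = 0.43); the points share the same 8 libraries and are not replicates. The 4 genes on the higher side had a mean GC content of 53.6% and the 5 on the lower side 43.9%. Within a diet r was 0.71 in HFD and 0.50 in ND. With log2 transcript length r was 0.14. The correction given above also changed the scaling of the libraries, so it cannot separate base composition from scaling. The part of base composition in the differences was not tested.

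Set against C, which shares the siNampt libraries with the comparison above, the genes lay mostly lower. With edgeR 0 of 38 passed (0% of all genes; DESeq2 passed 2 of all genes and limma 0, none of the 38). At an unadjusted p under 0.05, 1 was higher (2.63%, against 2.19% of all genes) and 2 were lower (5.26%, against 1.61%). Mitosis genes had a median of -0.17 with 12 of 13 on the lower side, the S to M group -0.21 with 4 of 4, replication genes 0.05 with 5 of 12 and G1 genes -0.02 with 5 of 9, while all genes tested had a median of 0.01. Ccnb1 stood at 600.2 and 717 CPM in HFD_siNampt, 713 and 904 in HFD_siNT and 973 and 872 in HFD_C, and at 769 and 819 in ND_siNampt, 794 and 945 in ND_siNT and 781 and 859 in ND_C. The groups overlapped, with HFD_siNampt replicate 1 lowest of all, and Ccnb1 differed by -0.27 (SE 0.12, unadjusted p = 0.0407, adjusted p = 0.999) in edgeR. Cdk1, given above, differed by -0.26 (SE 0.12). Ccnd1 stood at 1.198 and 0.853 CPM in HFD_siNampt, 0.849 and 1.29 in HFD_siNT and 0.479 and 0.598 in HFD_C, and at 1.23 and 1.23 in ND_siNampt, 0.934 and 0.490 in ND_siNT and 0.677 and 0.552 in ND_C. Each siNampt value of Ccnd1 was above each C value, at a level of about 1 CPM, and it differed by 0.97 (SE 0.39, unadjusted p = 0.0271, adjusted p = 0.999) in edgeR. Of the 9 genes named against siNT, Cdk2 was at 0.21, Ccnd3 at 0.36, Mcm7 at 0.17, Cdc20 at 0.16, Ccne2 at -0.27, Pcna at -0.15, Gmnn at -0.15 and Mad2l1 at -0.18 against C. By batch the mitosis median was -0.19 and -0.18. In this comparison 16 of 19 trophectoderm markers were on the higher side, with 4 higher (21.1%, against 2.19% of all genes) and 0 lower at an unadjusted p under 0.05, and the inner cell mass markers had 7 of 14 on the higher side. The trophectoderm list summed to 6326 to 8869 TPM in siNampt and 6169.9 to 7425 TPM in C. Their part in the lower mitosis and S to M values was not tested.

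The non-targeting siRNA was compared with C, and shares its siNT libraries with the first comparison. With edgeR 0 of 38 passed (0% of all genes; DESeq2 passed 2 of all genes and limma 0, none of the 38). At an unadjusted p under 0.05, 0 were higher (0%, against 1.97% of all genes) and 2 were lower (5.26%, against 2.42%). Bub1b stood at 27.3 and 29.0 CPM in HFD_siNampt, 23.1 and 22.3 in HFD_siNT and 25.1 and 27.7 in HFD_C, and at 19.5 and 25.03 in ND_siNampt, 18.0 and 21.2 in ND_siNT and 29.0 and 33.1 in ND_C. Every siNT value of Bub1b lay below every C value, and it differed by -0.45 (SE 0.15, unadjusted p = 0.00881, adjusted p = 0.984) in edgeR. Cdc20 differed by -0.30 (SE 0.13, unadjusted p = 0.0403, adjusted p = 0.984) in edgeR, with values given above. Replication genes had a median of -0.11 with 9 of 12 on the lower side, and mitosis genes -0.09 with 10 of 13, though the mitosis median was -0.17 within batch 1 and 0.02 within batch 2. All genes had a median of -0.01. In siNT against C, Cdk2 was at -0.54, Plk1 at -0.38, Mcm7 at -0.22, Gmnn at 0.22, Pcna at 0.16 and Ccne2 at 0.28.

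**Figure D3:**
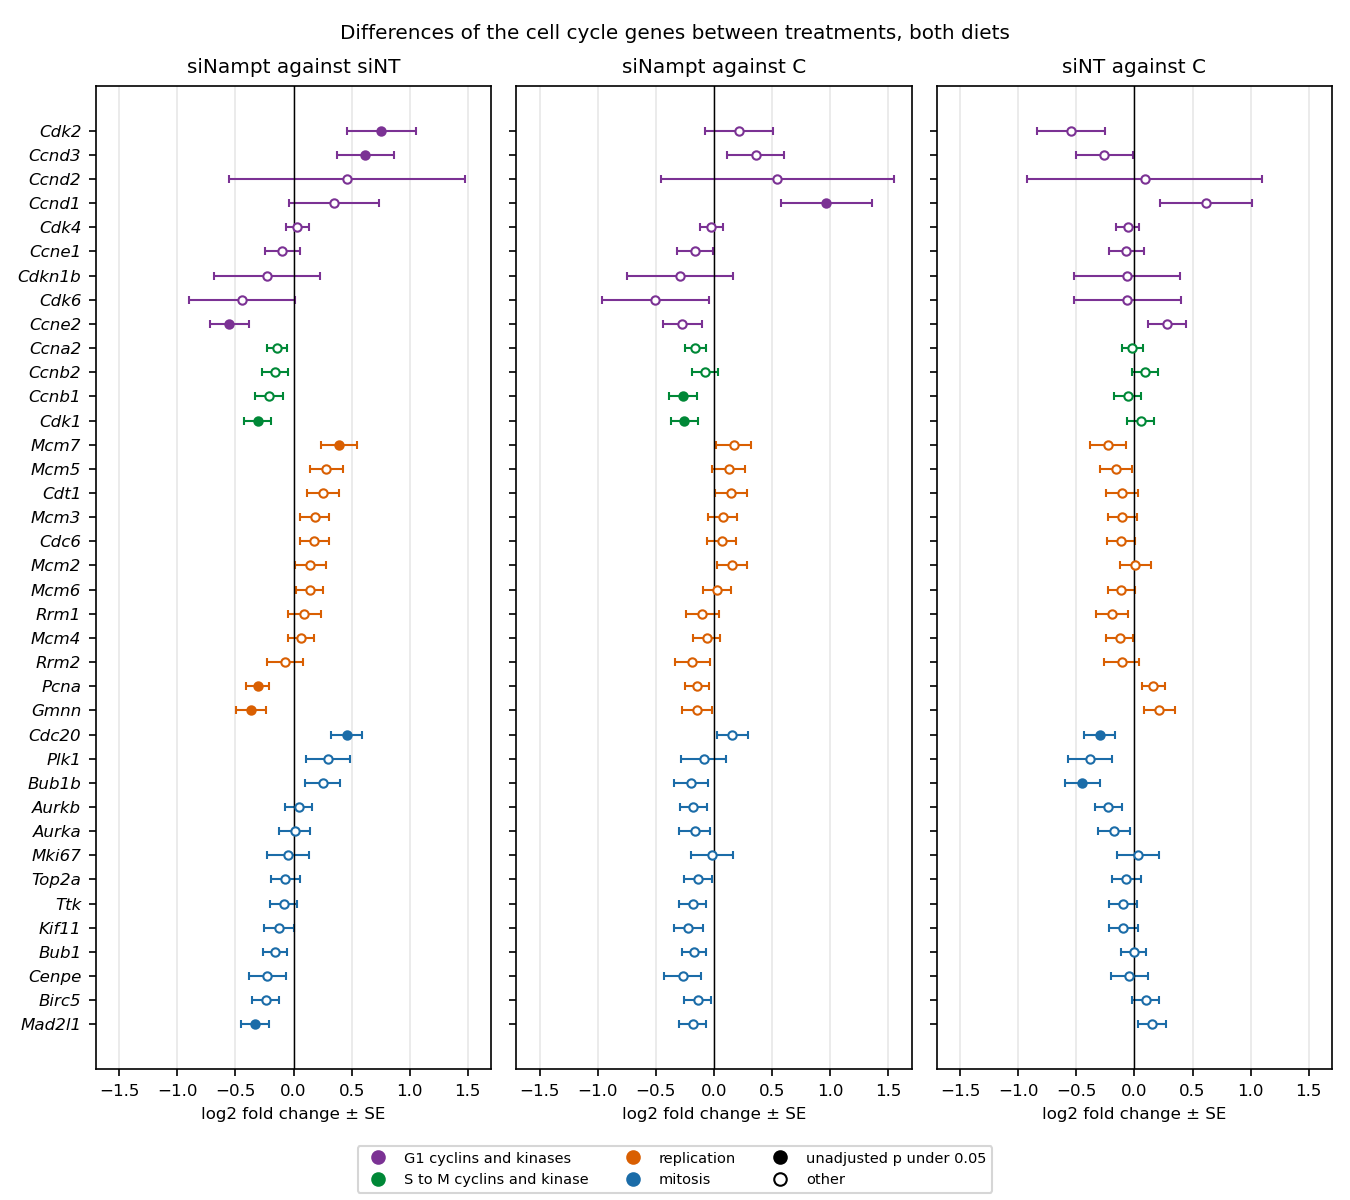
Log2 fold change with its SE of the 38 genes in siNampt against siNT, siNampt against C and siNT against C over both diets (edgeR, 4 libraries a group); filled points have an unadjusted p under 0.05. The 4 genes of the S to M group lie below 0 in both siNampt panels, and the comparisons share libraries.

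Within ND, siNampt against siNT with 2 libraries each, edgeR passed 0 of 38 (0% of all genes, and 0 with DESeq2 and limma). At an unadjusted p under 0.05, 2 were higher (5.26%, against 4.61% of all genes) and 5 were lower (13.2%, against 3.74%). The split turned round with limma on log2(TPM + 1), at 4 higher and 1 lower (13.2% in all, against 9.6% of all genes). It was 0 and 3 with the GC and length correction (7.89%, against 5.3%). The median of all genes was 0.09 with limma and -0.08 with the correction, so these splits also hold a shift common to all genes. With no filter on low counts the split was 5 and 4 (23.7%, against 7.55%). The lower ones were Gmnn at -0.57 (SE 0.16, unadjusted p = 0.00333, adjusted p = 0.536), Pcna at -0.42 (SE 0.14), Cdk1 at -0.45 (SE 0.15), Mad2l1 at -0.35 (SE 0.15) and Ccne2 at -0.55 (SE 0.25), and the higher ones Cdk2 at 1.09 (SE 0.43) and Cdc20 at 0.53 (SE 0.20) by edgeR. In this diet 14 of 19 trophectoderm markers were on the higher side in siNampt, with 8 at an unadjusted p under 0.05, among them Krt8 at 0.49 (SE 0.13), Krt18 at 0.63 (SE 0.18) and Krt19 at 1.47 (SE 0.37). Inner cell mass markers were lower in 11 of 14, 3 of them at an unadjusted p under 0.05. The summed level of the trophectoderm list was 7822 to 8869 TPM in ND_siNampt and 5427 to 6431 TPM in ND_siNT. That of the inner cell mass list was 29723 to 31058 TPM in ND_siNampt and 31542 to 33680 TPM in ND_siNT. Dppa5a made up nearly all of the inner cell mass sum. It stood at 29153 and 30229 TPM in ND_siNampt and at 30853 and 32856 TPM in ND_siNT. Of the markers of both lists 0 were at 0 in any library. The part of such a shift in the cell cycle genes was not tested.

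Within HFD, edgeR passed 0 of 38 (0% of all genes; DESeq2 passed 2 of all genes, none of the 38, and limma 0). At an unadjusted p under 0.05, 0 were higher (0%, against 1.97% of all genes) and 1 was lower (2.63%, against 2.31%), near the background share. That gene was Ccne2, at -0.55 (SE 0.25, unadjusted p = 0.0463, adjusted p = 0.923) in edgeR. Here 9 of 19 trophectoderm and 9 of 14 inner cell mass markers were on the higher side. At an unadjusted p under 0.05 there were 2 trophectoderm markers lower (10.5%, against 2.31% of all genes) and 0 higher, with summed levels of 6326 to 8021 TPM in HFD_siNampt and 6801 to 7177 TPM in HFD_siNT for the first list. The HFD response minus the ND response had 0 of 38 passing (0% of all genes, and 0 with DESeq2 and limma). The counts at an unadjusted p under 0.05 were 0 higher and 0 lower, against 1.44% and 1.62% of all genes. In that difference 16 of 19 trophectoderm markers were on the lower side, 3 at an unadjusted p under 0.05 (15.8%), and 12 of 14 inner cell mass markers on the higher side, 2 at that p (14.3%). Of the 9 genes above, Cdk2 differed by -0.67 (SE 0.60), Gmnn by 0.43 (SE 0.22) and Ccne2 by 0.00 (SE 0.35). The median SE of the 38 genes in this test was 0.27.

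Diet over all treatments, HFD against ND with 6 libraries each, left the 38 genes close to 0, with a median absolute log2 fold change of 0.06 (0.12 for all genes). With edgeR 0 passed (0% of all genes; DESeq2 passed 2 of all genes and limma 0, none of the 38). Of the 38, at an unadjusted p under 0.05, 1 was higher (2.63%, against 1.72% of all genes) and 0 were lower (0%, against 1.49%). Ttk stood at 43.2 and 37.95 CPM in HFD_siNampt, 39.7 and 44.7 in HFD_siNT and 52.2 and 45.5 in HFD_C, and at 37.2 and 34.8 in ND_siNampt, 35.9 and 41.9 in ND_siNT and 40.9 and 35.8 in ND_C. The diets overlapped widely, and Ttk differed by 0.21 (SE 0.10, unadjusted p = 0.043, adjusted p = 1.0) in edgeR. Replication genes were on the lower side in 11 of 12, with a median of -0.05, but this was -0.14 in batch 1 and 0.06 in batch 2.

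The replicates of HFD_siNampt differed in replication genes. On the log2 CPM scale 11 of 12 replication genes were higher in replicate 2 than in replicate 1, with a median gap of 0.47. The exception was Gmnn. In the other 5 groups the median gap of replication genes lay between -0.04 and 0.13. This group also had the widest absolute gap over all genes tested, a median of 0.41 against 0.28 to 0.34 in the other groups, and of 0.31 against 0.19 to 0.24 among genes of at least 5 CPM. Summed over the 6 Mcm genes, the level was 173 and 267 TPM in HFD_siNampt, 195 and 171 in HFD_siNT and 171 and 222 in HFD_C, and 235 and 213 in ND_siNampt, 170.0 and 169.5 in ND_siNT and 217 and 221 in ND_C. HFD_siNampt replicate 2 held the highest of these 12 values, and replicate 1 lay near the lowest ones. Of the 38 genes, 11 had their lowest library in HFD_siNampt replicate 1 and 2 their highest there; for HFD_siNampt replicate 2 these counts were 6 lowest and 8 highest, and for HFD_C replicate 1 they were 5 and 8. HFD_siNampt replicate 1 was also the library with the most genes counted, 17948. Without it, siNampt against siNT over both diets had 9 of the 38 higher and 7 lower at an unadjusted p under 0.05, in all 42.1%, where 14.5% of all genes reached that p (23.7% and 11.2% with all libraries). Without HFD_siNampt replicate 2 it had 2 and 5 (18.4%, against 6.77% of all genes), without HFD_siNT replicate 1, the library of short fragments, 5 and 8 (34.2%, against 12.1%), and without ND_siNT replicate 1, 1 and 5 (15.8%, against 6.51%). In each of these, 0 passed the adjusted threshold in edgeR.

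**Figure D4:**
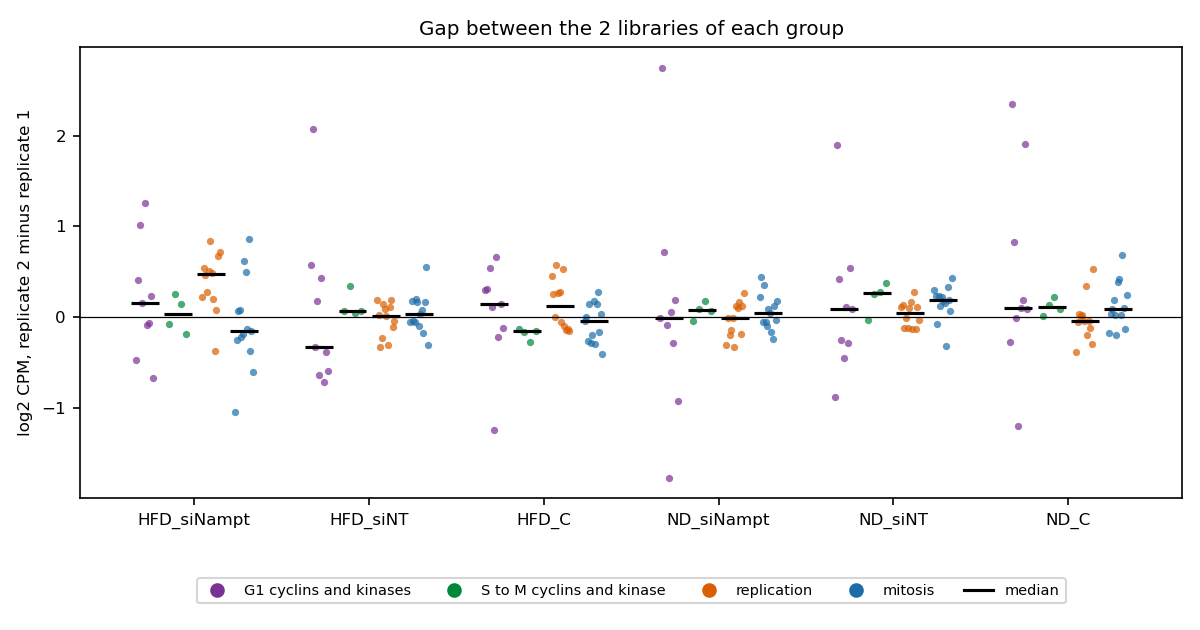
Log2 CPM of replicate 2 minus replicate 1 for each of the 38 genes in each group, coloured by role, with the median of each role as a bar. The replication genes of HFD_siNampt stand at a median of 0.47, and those of the other groups between -0.04 and 0.13.

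Other genes of the pathway were counted in the same way. In siNampt against siNT over both diets, 5 of 61 further G2 and mitosis genes were higher (8.2%, against 6.1% of all genes) and 10 lower (16.4%, against 5.05%) at an unadjusted p under 0.05, with 0 past the adjusted threshold in edgeR. Those of smallest p were the kinetochore subunit Spc25 at -0.40 (SE 0.12), the F-box cyclin Ccnf at 0.42 (SE 0.14) and the checkpoint protein Mad1l1 at 0.54 (SE 0.19). Of 45 further replication genes 2 were higher (4.44%, below the share of all genes) and 6 lower (13.3%). They were led by Rpa3, a subunit of the single-strand binding complex, at -0.37 (SE 0.13), the flap endonuclease Fen1 at 0.45 (SE 0.16) and Dbf4, which activates the kinase Cdc7, at -0.35 (SE 0.13). Of 27 further G1 regulators 1 was higher, the inhibitor Cdkn1a at 0.53 (SE 0.23), and 1 lower, the kinase subunit Cks1b at -0.25 (SE 0.11), each 3.7% and below the shares of all genes. Against C, the further G2 and mitosis genes were on the lower side in 43 of 61 with a median of -0.11, and 2 were lower (3.28%, against 1.61% of all genes) and 0 higher (0%, against 2.19%) at an unadjusted p under 0.05, Casc5 at -0.46 (SE 0.20) and Kif18a at -0.29 (SE 0.13). In siNT against C they were lower in 36 of 61. At an unadjusted p under 0.05, 1 was higher (1.64%, against 1.97% of all genes) and 2 were lower (3.28%, against 2.42%). The lower ones were the cytokinesis motor Kif20a at -0.41 (SE 0.13) and Racgap1, also of cytokinesis, at -0.32 (SE 0.13). In HFD the polymerase subunit Pold1 was at 0.99 (SE 0.29) and in ND Mad1l1 at 0.89 (SE 0.25).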

How the data were processed

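Per the labels, the 12 libraries were made from poly(A) RNA with a SMART-Seq v4 PLUS kit, each from 1 pool of mouse blastocysts. STAR 2.7.10, RSEM 1.2.28 and mm10 are named in the submitters' processing notes. Per the file headers, the deposited tables give for each gene RSEM's expected count, TPM and FPKM (both normalized by the authors for length and depth), and the length and effective length in bases. As no source states whether strand was kept, overlapping antisense genes may share reads.

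Expected counts (9.27% of nonzero ones not whole within 0.005) were rounded. Genes passing edgeR's filterByExpr on the 6 groups (minimum count 10) numbered 14743. Counts were TMM-scaled and analysed under R 4.3.3 by the quasi-likelihood test of edgeR 4.0.16 (two-sided, Benjamini-Hochberg adjustment over all genes tested, threshold 0.05), with all 12 libraries in each fit. A model of diet and treatment gave the comparisons over both diets, and a model of the 6 groups gave those within a diet and their difference. Fold changes are those of the edgeR fit at its default prior count, on the log2 scale. Log2 CPM values, used for replicate correlations, spreads, gaps and medians by batch, had a prior count of 2. SE is the absolute log2 fold change over the square root of F. Levels are the deposited TPM. GC content came from GENCODE transcripts, for 99.17% of the genes tested. The method was tested on simulated data.

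All 38 genes were given a level, with values per library for the 3 highest and lowest of cyclins and kinases, replication and mitosis, and for those with an unadjusted p under 0.05 (up to 5 a comparison, and all 9 of siNampt against siNT). Of other pathway genes and markers up to 3 of smallest p were eligible. The members, lists and alternatives were chosen with earlier results of these data known. The batch label equals the replicate number, but libraries of the same number did not deviate together throughout (15 pairs of groups, r from -0.06 to 0.22, 6 above 0.1); the block was an alternative, as were DESeq2 1.42.0, limma 3.58.1 on log2 TPM, RLE factors, other filters, a GC and length correction and leaving out each library.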

Additional observations from a re-analysis of the deposited data

Results flagged for a closer look

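Ccnd1 in siNampt stood at 0.853 CPM in HFD_siNampt replicate 2, away from 1.198 CPM in HFD_siNampt replicate 1 and 1.233 and 1.229 CPM in ND_siNampt. This was the 1 value far from the rest of its group among 30 groups examined, and chance marks about 1 in 20 groups. In siNT the 4 values of Ccnd1 ran from 0.490 to 1.29 CPM and in C from 0.479 to 0.677 CPM.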

How the results depend on the processing

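In the main fit 0 of the 38 passed the threshold in any comparison, so there was no such value whose sign could change. The sign of medians did turn, in 61 of 345 medians of the 38 genes or a role under other settings. Some of these settings shifted the median of all genes as well, as given below. With a library left out, 57 of 420 turned. Of the fold changes of the named single genes 0 of 228 and 0 of 276 turned. These genes were picked for an unadjusted p under 0.05 in the same data, so this is no independent check. Of single genes and group medians, 458 kept their direction or side of the threshold or moved by under 1 SD under other settings, 44 moved and 3 came past the threshold, and of those with a library left out 596 held and 16 moved. The 3 that came past it did so with no filter on low counts (Ccnd3 at 0.62 and Cdk2 at 0.76 over both diets, and Cdk2 at 1.11 in ND), where the prior degrees of freedom were infinite. That setting also called 119 genes and 2 of the 38 for siNampt against siNT over both diets, 71 genes against C, 76 for siNT against C, 108 genes and 1 of the 38 in ND, 68 in HFD, 40 for the difference between diets and 99 genes and 1 of the 38 (Cdk2 at 0.47) for diet. Genes of the 38 at an unadjusted p under 0.05 there numbered 4 for siNT against C (10.5%, against 5.0% of all genes). In HFD they numbered 3 (7.89%, against 4.58%) and for the difference between diets 1 (2.63%, against 4.14%). DESeq2 called 1, 2, 2, 2 and 2 genes (siNampt against siNT, siNampt against C, siNT against C, HFD, diet), 0 of them among the 38. With DESeq2, 2 of the 38 had an unadjusted p under 0.05 in HFD (5.26%, against 4.78% of all genes) and 0 for diet (against 3.81%).

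The number of the 38 at an unadjusted p under 0.05 is given with its share against that of all genes. The filter of 5 CPM left 34 of the 38 to be tested. Against C the number was 1 with that filter (2.94%, against 4.1%) and 1 with limma at a pseudocount of 0.1 (2.63%, against 3.7%). For siNT against C it was 1 with the GC and length correction (2.63%, against 4.12%). With the replicate block added it was 1 as well (2.63%, against 4.78%). In ND it was 3 with that correction (7.89%, against 5.3%) and 4 with the block added (10.5%, against 6.21%). In HFD it was 2 with RLE factors (5.26%, against 4.44%) and 2 with the replicate block (5.26%, against 5.04%). It was 0 in HFD with the filter of 5 CPM (against 4.91%) and with limma at pseudocounts of 1 and 0.1 (against 4.71% and 4.35%). It was also 0 with the GC and length correction (against 4.69%) or only the libraries compared (against 3.33%). For diet it was 0 with RLE factors (against 3.15%) or the GC and length correction (against 3.72%). The replicate block gave 2 for diet (5.26%, against 3.91%). Limma at pseudocounts of 1 and 0.1 gave 2 and 3 for diet (5.26% and 7.89%, each against 3.67%). The replicate block changed no other call.

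The median of the 38 for siNampt against siNT over both diets, -0.02, was 0.0598 and 0.11 with limma at pseudocounts of 1 and 0.1, -0.13 with the GC and length correction and -0.13 with that and the replicate block. For siNT against C it was -0.18 and -0.18 with limma, 0.0114 with the correction and 0.00569 with the block added. In ND limma gave 0.0898 and 0.12. In HFD limma gave 0.0633 and 0.0649, and the correction -0.15, with or without the block. Limma at a pseudocount of 0.1 shifted the median of all genes to 0.14, 0.16 and 0.13 (siNampt against siNT over both diets, ND, HFD) and -0.11 (siNT against C). At a pseudocount of 1 it was 0.07, 0.09, 0.07 and -0.07 in the same order. The correction, with or without the block, shifted it to -0.10 over both diets, -0.12 in HFD and 0.06 for siNT against C. The correction's curves were fitted without TMM factors and took up library scaling, and TMM factors were applied on top. Limma on log2 TPM used no TMM factors. How far this scaling moved the medians was not tested.

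Leaving out 1 library gave 6 to 16 of the 38 at an unadjusted p under 0.05 for siNampt against siNT (16 without HFD_siNampt replicate 1), 1 to 4 for siNampt against C, 1 to 5 for siNT against C, 2 to 8 in ND, 0 to 7 in HFD, 0 to 6 for the difference between diets and 0 to 2 for diet. The share of all genes at that p moved as well, between 6.51% and 14.5%, 2.43% and 6.47%, 2.65% and 7.73%, 4.37% and 9.95%, 1.71% and 8.06%, 2.01% and 7.46%, and 2.34% and 5.15% in these comparisons, and the filter then kept 15556 to 15631 genes. Genes called ranged from 0 to 1 in HFD, 0 to 2 for the difference and 0 to 1 for diet, and the median of the 38 for the difference from -0.16 without HFD_siNampt replicate 2 to 0.0753 without replicate 1. With 2 pools a group, the median SE of the 38 genes was 0.19 within a diet, which limits what could be called.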
